A study of Homo sapiens with 6 samples.

Results

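The IL-1 family genes described here are Il1a, Il1b, Il1rn, Il33, Il1r1, Il1rl1, Il1rap and Il18bp. They were chosen by gene symbol, and all 8 have a row among the 22989 genes of the count table. The RNA-seq data comprise 3 LINC00115 KD and 3 WT libraries by their labels, which give all of them as MDA-MB-231 PTX-resistant BCSC. MDA-MB-231 is a breast cancer line of human origin that lacks hormone receptors and HER2, PTX is paclitaxel, and BCSC are breast cancer stem cells, which the study sorted by their aldehyde dehydrogenase activity. In the KD cells a short hairpin RNA targets the long noncoding RNA LINC00115. The study names a single hairpin for its RNA-seq comparison. The KD libraries are named in the same pattern as the study's hairpins, so it is not certain which hairpin each of them carries. The labels call the comparison group WT, whereas the study's text speaks of a control hairpin, so it is not certain that the WT cells carry a vector. The labels do not say whether the 3 libraries of a group came from separate cultures, so p-values measure the spread between these libraries, which may be technical. The comparison asks which members of the family differ in level when LINC00115 is knocked down.

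The libraries held between 36979221 and 38799331 counts, and pairs of libraries within a group had a chi-square of 3.94 to 7.96 per degree of freedom, above that of sampling noise, so none was deposited as a duplicate. The rows of the table are a mouse gene set and not that of a human line. Of the 8 members, 0 equal a human symbol as written and 8 do apart from case, 4648 rows carry Gm names and 1135 Rik names, both given to mouse gene models, and genes that mouse has and human lacks, such as Lyz2 and Nlrp1b, hold counts. The files do not settle how libraries labelled as human came to be counted on mouse genes, so whether these counts come from the labelled cells is in doubt, and each result below is about the libraries labelled KD and WT. The table has 0 rows named LINC00115, so the knockdown could not be checked and every direction rests on the labels. The list of 14 marker genes for a mesenchymal triple-negative breast line mixes genes that such a line expresses with genes that it lacks. Vim, Cd44 and Krt8 were abundant in all libraries. Epcam had 0 to 5 counts, Cdh2 0 to 2, Snai2 0 to 1 and Zeb1 23 to 64. Aldh1a3, a main source of the aldehyde dehydrogenase activity used for sorting, had 0 to 4 counts. Of the receptor genes, Erbb2 (HER2) had 592 to 1061 counts, Esr1 24 to 105 and Pgr 0 to 3. Of the 14, 7 were higher in every KD library and 0 lower (37.8% of all genes tested in each direction), Esr1, Cdh1, Erbb2 and Aldh1a1 among them. The summed level of these 14 genes, most of it Vim, was 4923 to 4977 normalized CPM in WT and 5550 to 5687 in KD libraries. As it adds genes of both kinds, this sum does not measure the identity of the line. Normalized CPM is a count scaled to the library total after scaling by the TMM method, which assumes that the bulk of genes do not change. By edgeR's quasi-likelihood test, 36.7% of all genes tested were higher and 36.7% lower in KD at an adjusted p under 0.05. That assumption is therefore open to question here, and small fold changes lean on it most. In bulk RNA, fewer cells that express a gene and less of its RNA per cell cannot be told apart.

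IL-1 alpha (Il1a) and IL-1 beta (Il1b) are inflammatory cytokines that bind the receptor IL-1R1 (Il1r1), which then recruits the accessory chain IL-1RAP (Il1rap) and signals through MyD88 and NF-kB. The IL-1 receptor antagonist (Il1rn) binds the same receptor without recruiting the accessory chain and so blocks both agonists. IL-33 (Il33) is a nuclear alarmin whose receptor ST2 (Il1rl1) pairs with the same accessory chain, and IL-18 binding protein (Il18bp) is a secreted decoy for IL-18. In breast tumours IL-1 is known as a signal between cancer cells and their surroundings. In the GENCODE annotation of GRCh37, a build of the human genome (hg19), the human ligand genes from IL1A to IL1RN, with the IL-36 genes between them, lie on chromosome 2 from 113531502 to 113891593. The human receptor genes from IL1R2 to IL18RAP, IL1R1 and IL1RL1 among them, lie on the same chromosome from 102608422 to 103069025. IL33 is on chromosome 9 from 6215786 to 6257983, IL1RAP on chromosome 3 from 190231840 to 190377539, and IL18BP on chromosome 11 from 71709659 to 71718361. These are positions of the human genes of the same name and were not used to count reads here.

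The members did not move as a block. Both inhibitor genes, Il1rn and Il18bp, rose in the KD libraries, and the receptor genes Il1r1 and Il1rl1 fell, the last from few counts and with overlap between the groups. The agonists Il1a and Il1b did not pass the test, and Il33 and Il1rap differed by less than a fold change of 2. All 8 members passed the low-count filter and were tested among 13497 genes with the quasi-likelihood test of edgeR, adjusted over all of them by Benjamini-Hochberg. With the study's thresholds, an adjusted p under 0.05 and a fold change over 2, 2 members were called higher and 2 lower. Over all genes tested, 10.2% were called higher and 9.98% lower. In 5 members every KD library lay above every WT library and in 1 every KD library lay below, as was so in 37.8% of all genes tested in each direction. The median log2 fold change (KD over WT) was 0.42 over the 8 members and −0.01 over all genes tested.

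**Figure D1:**
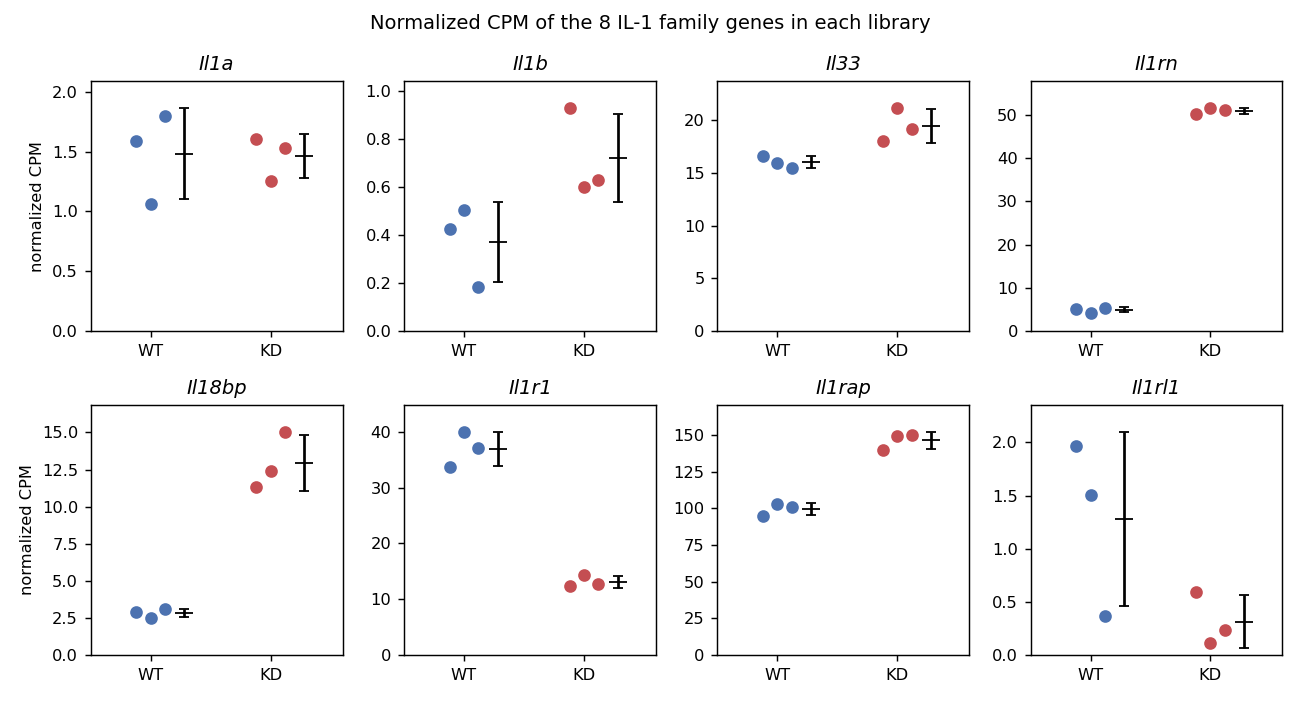
Normalized CPM (vertical axes, each starting at 0) of the 8 IL-1 family genes in the 3 WT and 3 KD libraries, 1 point per library, with the group mean and SD as a black mark and bar. Il1rn and Il18bp are higher in every KD library and Il1r1 is lower in every KD library, while the points of Il1a and Il1rl1 overlap between the groups.

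Of the agonists, Il1a had 60, 40 and 68 counts in the WT libraries and 62, 46 and 58 counts in the KD libraries. The KD libraries lay within the range of the WT libraries. Its level was 1.48 ± 0.382 normalized CPM in WT and 1.46 ± 0.184 in KD libraries (SD, n = 3 each). The log2 fold change was −0.02 with a standard error of 0.34 (adjusted p = 0.956, edgeR's quasi-likelihood test), so a change of either sign within that error could not be detected at this depth. Leaving out a replicate turned its sign, with values from −0.21 to 0.14.

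Il1b was the member with the fewest counts, 16, 19 and 7 in the WT libraries and 36, 22 and 24 in the KD libraries. Every KD library lay above every WT library, but the smallest gap was 3 counts. The levels were 0.371 ± 0.166 and 0.721 ± 0.183 normalized CPM, a log2 fold change of 0.95 with a standard error of 0.51 (adjusted p = 0.0911, edgeR's quasi-likelihood test, between 0.0886 and 0.344 over the alternatives). The difference was therefore not larger than the spread between replicates by this test. The value rests on WT replicate 3: it was 0.63 without that library and 1.94 without the other WT libraries.

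Il33, the alarmin, was counted more deeply than the IL-1 agonists. It had 624, 601 and 584 counts in the WT libraries and 698, 776 and 725 in the KD libraries, without overlap. Its level went from 16.0 ± 0.556 to 19.4 ± 1.57 normalized CPM, a log2 fold change of 0.28 with a standard error of 0.09 (adjusted p = 0.00481, edgeR's quasi-likelihood test). That is 1.22-fold and under the fold threshold. At an adjusted p under 0.05 alone, 36.7% of all genes tested were higher and 36.7% lower.

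Il1rn, the receptor antagonist, showed the largest change of the 8 members. It had 197, 163 and 206 counts in the WT libraries and 1938, 1889 and 1938 counts in the KD libraries. The KD libraries were close to each other and all far above the WT libraries. Its level rose from 4.999 ± 0.601 to 50.9 ± 0.690 normalized CPM (SD, n = 3 each), 10.2-fold, a log2 fold change of 3.35 with a standard error of 0.09 (adjusted p = 2.19e-27, edgeR's quasi-likelihood test). With each replicate left out in turn it stayed between 3.25 and 3.41. The gene encodes secreted and intracellular forms, which counts per gene do not separate.

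Il18bp, the decoy of IL-18, had 109, 95 and 116 counts in the WT libraries and 439, 455 and 572 counts in the KD libraries. All KD libraries were higher, and KD replicate 3 was the highest of them. The level rose from 2.83 ± 0.283 to 12.9 ± 1.91 normalized CPM, 4.57-fold, a log2 fold change of 2.19 with a standard error of 0.15 (adjusted p = 2.40e-15, edgeR's quasi-likelihood test). In the human annotation, which is not that of the table, exons of IL18BP overlap exons of NUMA1 on the other strand, and the use of strand in the counting is not stated. Numa1 moved the other way, from 258 ± 4.93 to 196 ± 3.29 normalized CPM (log2 fold change −0.40).

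Because Il1rn competes with Il1a and Il1b for the same receptor, its counts were also set against theirs within each library, a ratio that does not depend on scaling between libraries. Il1rn had 2.59, 2.76 and 2.75 counts per count of Il1a and Il1b together in the WT libraries, and 19.8, 27.8 and 23.6 in the KD libraries. The groups were far apart and the spread within each was small. The mean log2 ratio was 1.43 ± 0.05 in WT and 4.55 ± 0.25 in KD libraries (SD, n = 3 each), a difference of 3.12 or 8.71-fold (two-sided exact permutation test, p = 0.1, the smallest p that 3 libraries against 3 allow). With Il1a alone as the ligand the difference was 3.35, and with Il1b alone 2.30, both with the same exact p = 0.1. Since neither ligand passed the test, the ratio mainly restates the rise of Il1rn, whose own log2 fold change was 3.35. It is no separate evidence. The ratio counts reads and is not per length, so it compares the groups and does not give the molar excess of the antagonist.

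**Figure D2:**
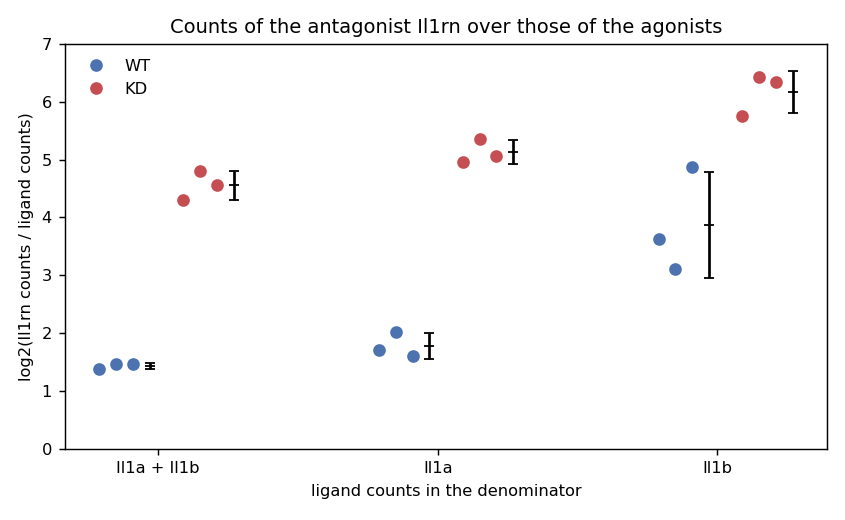
Log2 ratio of Il1rn counts to ligand counts (vertical axis) in each WT and KD library for Il1a and Il1b together, Il1a alone and Il1b alone, with the group mean and SD in black. In all 3 versions every KD library lies above every WT library, and the WT values spread most where the few counts of Il1b are the denominator.

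Among the receptors, Il1r1, the signalling receptor for IL-1, fell. It had 1270, 1508 and 1403 counts in the WT libraries and 479, 525 and 481 counts in the KD libraries. Every KD library was below every WT library by a wide margin. The level went from 36.9 ± 3.12 to 13.1 ± 1.04 normalized CPM (SD, n = 3 each), 2.82-fold lower, a log2 fold change of −1.49 with a standard error of 0.08 (adjusted p = 8.87e-18, edgeR's quasi-likelihood test). Leaving out a replicate kept it between −1.56 and −1.43.

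Il1rap, the accessory chain shared by the receptors for IL-1, IL-33 and IL-36, moved in the opposite direction to Il1r1. It had 3577, 3890 and 3820 counts in the WT libraries and 5410, 5495 and 5704 counts in the KD libraries. The groups did not overlap. From 99.7 ± 4.23 it went to 147 ± 5.82 normalized CPM, 1.47-fold, a log2 fold change of 0.56 with a standard error of 0.04 (adjusted p = 1.16e-13, edgeR's quasi-likelihood test), under the fold threshold.

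Il1rl1, which encodes the IL-33 receptor ST2 in a membrane and a soluble form, was called lower, but its libraries were uneven. It had 74, 57 and 14 counts in the WT libraries and 23, 4 and 9 counts in the KD libraries, so that WT replicate 3 lay within the range of the KD libraries. The fitted log2 fold change was −2.01 with a standard error of 0.56 (adjusted p = 0.00169, edgeR's quasi-likelihood test), at levels of 1.28 ± 0.821 and 0.313 ± 0.252 normalized CPM. Without a replicate it ranged from −2.85 to −1.57.

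ST2 is a known surface marker of mast cells, and genes known from mast cells also held counts in these libraries. Cpa3, the mast cell carboxypeptidase, had 356, 325 and 68 counts in the WT libraries and 0 in every KD library. Fcer1a, the alpha chain of the high-affinity IgE receptor, had 65, 56 and 16 counts in WT libraries and 0 in every KD library, and Tpsb2, a tryptase, and Ms4a2, the beta chain of that receptor, were also at 0 in every KD library. Kit had 45, 38 and 3 counts in the WT and 6, 10 and 2 in the KD libraries. These genes and Il1rl1 were thus all higher in WT replicates 1 and 2 than in WT replicate 3. Il1rl1 had 0.208, 0.175 and 0.206 counts per count of Cpa3 in the 3 WT libraries. In the KD libraries, where Cpa3 was at 0, Il1rl1 still had 23, 4 and 9 counts, so no such ratio exists there. Which cells the Il1rl1 counts come from was not tested.

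These 5 genes, picked from the marker list after their values were seen, together amounted to 13.6, 12.2 and 2.43 normalized CPM in the WT libraries and to 0.0527 to 0.272 in the KD libraries. Of the whole list of 11 listed mast cell and ILC2 markers (ILC2 are lymphoid cells that also carry ST2), 6 had all KD libraries below all WT libraries (37.8% of all genes tested did), 1 had them above, 6 were at 0 in every KD library, and the sum, most of it Gata3, was 98.7 to 115 in WT and 54.0 to 56.6 normalized CPM in KD libraries. Without WT replicates 1 and 2, an alternative chosen after the data were seen in which the remaining WT library is assumed to vary like the KD libraries, the log2 fold change of Il1rl1 was −0.24 and its call was lost (adjusted p = 0.859, edgeR's quasi-likelihood test, between 0.000111 and 0.859 over the alternatives). As the one WT library kept lies within the range of the KD libraries, this loss follows from which libraries were left out and is no separate test. Without any single library the call of Il1rl1 was kept. The other calls among the 8 members were the same in the fit without WT replicates 1 and 2, with 3.22 for Il1rn, 2.07 for Il18bp and −1.51 for Il1r1. In the human annotation IL1RL1 also shares exon sequence with IL18R1 on the same strand. Il18r1 had 0 counts in every WT library and 5, 6 and 5 in the KD libraries.

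**Figure D3:**
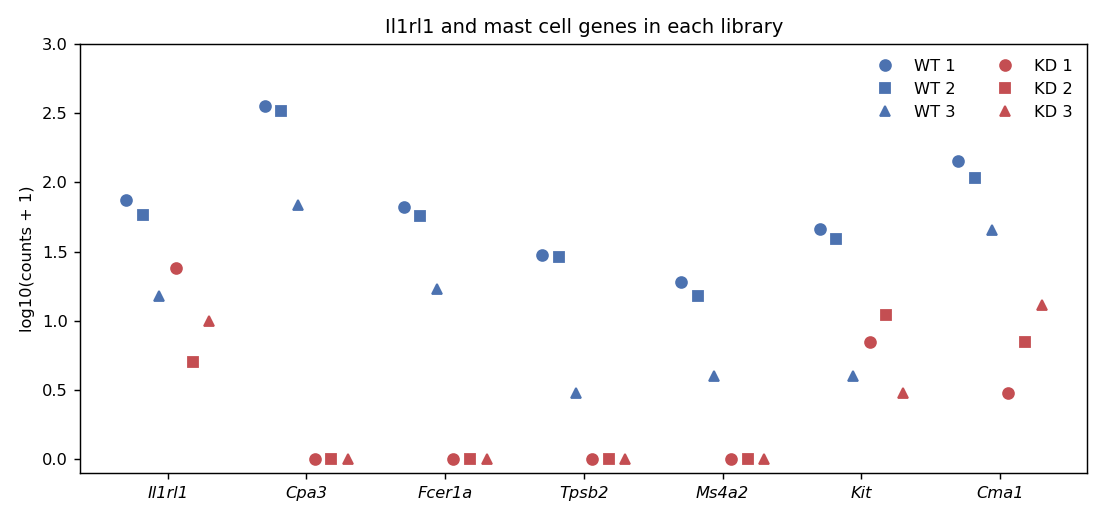
Counts of Il1rl1, of the mast cell genes Cpa3, Fcer1a, Tpsb2, Ms4a2 and Kit, and of Cma1 in each library, as log10(counts + 1). WT replicates 1 and 2 lie above WT replicate 3 for every gene shown, and Cpa3, Fcer1a, Tpsb2 and Ms4a2 are at 0 in all KD libraries while Il1rl1 is not.

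Other ligands and receptors of the family were taken from a list of 18 symbols, of which 11 have a row. The IL-36 genes are listed under the older names Il1f5, Il1f6, Il1f8 and Il1f9. Of the 5 genes tested, 3 were called higher and 0 lower in edgeR's quasi-likelihood test, with a median log2 fold change of 1.13. With an adjusted p under 0.05 alone 4 were higher and 1 lower, and with an unadjusted p the numbers were the same. Over all genes tested, 10.2% were called higher and 9.98% lower, and 36.7% passed the adjusted p alone in each direction. Il1f6 and Il1f9 passed the low-count filter only through the KD libraries, where they are high. The 3 of 5 and the median are thus partly fixed by the filter and are not comparable with the shares over all genes. With at least 10 counts required in every sample, 1 of these family genes was called higher. DESeq2's Wald test was run without this low-count filter but with its own filter on the mean count. Among the 11 genes with a row it called 5 higher and 0 lower, so its calls are not a share of the 5 genes tested above.

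Il1f9, the older name of the agonist IL-36 gamma, rose from near absence: it had 15, 9 and 10 counts in the WT libraries and 730, 656 and 638 counts in the KD libraries. The log2 fold change was 5.88 with a standard error of 0.19 (adjusted p = 1.50e-24, edgeR's quasi-likelihood test). Il1f6, or IL-36 alpha, had 11, 0 and 3 counts in the WT libraries and 279, 270 and 288 counts in the KD libraries, a log2 fold change of 5.86 with a standard error of 0.36 (adjusted p = 1.78e-16). Its size depends on the few WT counts and was 7.42 without WT replicate 1 and 5.29 without WT replicate 2. Both genes were thus close to the limit of detection in WT and well counted in every KD library. Their antagonist Il1f5 had 0, 0 and 0 counts in the WT and 0, 0 and 3 in the KD libraries, and their receptor Il1rl2 had at most 4 counts in any library. A count of 0 allows up to 3 counts, or 0.0776 to 0.0817 normalized CPM in these libraries, by counting error alone.

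Il18, the cytokine that Il18bp sequesters, had 127, 177 and 133 counts in the WT libraries and 308, 292 and 361 counts in the KD libraries. All KD libraries were higher, with a log2 fold change of 1.13 and a standard error of 0.16 (adjusted p = 1.12e-07, edgeR's quasi-likelihood test). Il18bp and its target thus both rose. The IL-18 receptor chain Il18rap went from 14.4 ± 0.566 to 23.2 ± 2.50 normalized CPM (log2 fold change 0.69), whereas its partner Il18r1, too low to be tested, was at least 1.78-fold higher in KD libraries against the limit of 3 counts per WT library. The decoy receptor Il1r2, which binds IL-1 without signalling, had 0 counts in the WT libraries and 10, 1 and 11 in the KD libraries and was not tested either. Sigirr, an inhibitory receptor of the family, was lower (log2 fold change −0.35), under the fold threshold.

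**Figure D4:**
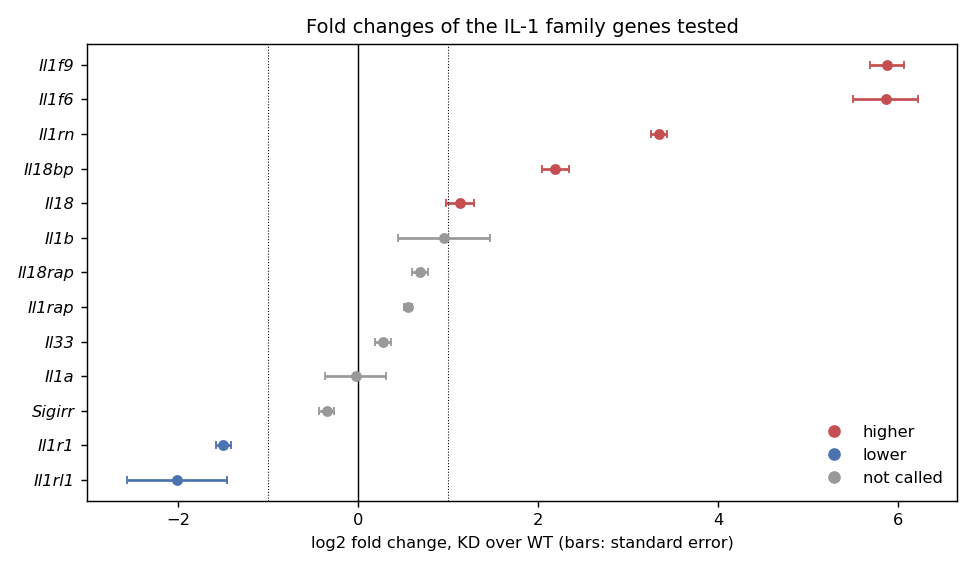
Log2 fold change (KD over WT, horizontal axis) with its standard error of the 8 members and the 5 other IL-1 family genes tested. Dotted lines mark a fold change of 2. Il1f9 and Il1f6 are the highest, near 5.88 and 5.86, followed by Il1rn and Il18bp, and the receptor genes Il1r1 and Il1rl1 are the lowest.

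IL-1 beta and IL-18 are made as inactive precursors, which caspase-1 cuts inside inflammasomes. Of 17 genes for the processing and release of the family's cytokines, 13 were tested, and 2 were called higher and 1 lower. With an adjusted p under 0.05 alone 5 were higher and 3 were lower, and the median log2 fold change was 0.00. The same calls took in 10.2% of all genes tested on the higher side and 9.98% on the lower. The adjusted p alone took in 36.7% on each side. Whether this list differs from those shares was not tested, so its numbers are not shown to be particular to it. Aim2, a sensor of cytosolic DNA, rose from 5.74 ± 0.569 to 34.1 ± 1.99 normalized CPM (log2 fold change 2.57, standard error 0.09). Nlrp1b, another sensor, had 1, 8 and 1 counts in the WT libraries and 31, 23 and 39 in the KD libraries (log2 fold change 3.17). Casp1 went from 38.0 ± 2.59 to 59.2 ± 3.27 and Casp4, the caspase of the noncanonical inflammasome, from 21.0 ± 1.94 to 33.6 ± 0.353 normalized CPM, both past the adjusted p and under the fold threshold. The pore-forming Gsdmd had a log2 fold change of 0.24.

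The adaptor Pycard, which links several sensors to caspase-1, had 0 or 1 count in every library, and Nlrp3 had 30 to 69 counts without a difference that passed the test (log2 fold change −0.09, standard error 0.37). Capn1, a calpain of the kind that cuts IL-1 alpha, fell by 0.73 on the log2 scale. The gene called lower was Cma1, the mast cell chymase, which can cut IL-1 and IL-33 precursors. It had 142, 106 and 44 counts in the WT libraries and 2, 6 and 12 in the KD libraries and so moved with the mast cell genes above.

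Downstream of the receptors, 28 of 30 signalling genes were tested and 0 were called higher and 1 lower, with a median log2 fold change of 0.04. At an adjusted p under 0.05 alone, 11 were higher and 6 lower. With an unadjusted p under 0.05 the numbers were 11 higher and 7 lower. Among all genes tested, 10.2% were called higher and 9.98% lower, and 36.7% passed the adjusted p alone in each direction. The calls in this list are under those shares, and the numbers by adjusted p alone are near or under them. DESeq2's Wald test, run with its own filter in place of this one, called 0 higher and 1 lower among the 30. Myd88, the adaptor of the whole receptor family, was higher by 0.47 and Tollip, an inhibitor at the receptor complex, by 0.48 on the log2 scale. The kinase gene Irak1 was lower by 0.56 (log2 fold change −0.56, standard error 0.05). Irak4 and Irak2 did not pass the test, with log2 fold changes of 0.14 and −0.16. Traf6, the ubiquitin ligase that follows the IRAK kinases, was higher by 0.14, and Map2k3, Chuk and Ikbkg, kinases and a scaffold further down, by 0.57, 0.41 and 0.46. The gene called lower was Peli3, of the Pellino ligases that act on IRAK proteins, with 31, 34 and 37 counts in the WT and 6, 12 and 9 in the KD libraries (log2 fold change −1.90). Besides Irak1 and Peli3, the genes lower by adjusted p alone were Tifa (−0.78), Tab3 (−0.25), Mapk14 (−0.22) and Ecsit (−0.18), against the 11 that were higher.

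Genes known to respond to IL-1 moved in both directions. Of 30 such genes, 29 were tested, and 8 were called higher and 3 lower, where 10.2% and 9.98% of all genes tested were. At an adjusted p under 0.05 alone (edgeR's quasi-likelihood test) 15 were higher and 13 were lower. Over all genes tested, 36.7% were higher and 36.7% lower by that measure, so movement in both directions is not particular to this list. Its median log2 fold change was 0.16. Many of them also respond to other signals, so the list is not specific to IL-1. The largest increases were those of the adhesion molecule Icam1 (2.83), the acute phase protein Saa3 (2.54), the chemokines Cxcl2 (2.28) and Ccl2 (2.22), the reductase Steap4 (2.15) and the chemokine Ccl7 (1.96), all as log2 fold changes. Ccl2 rose from 138 ± 10.1 to 641 ± 14.9 normalized CPM and Lcn2, an iron-binding secreted protein, from 1081 ± 27.9 to 2333 ± 102. Il6 was called higher (log2 fold change 1.03), but it was under the fold threshold with upper quartile scaling (0.99) and without WT replicate 3 (0.95), KD replicate 1 (0.98) or KD replicate 2 (0.9984).

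The matrix metalloproteinases Mmp9 (log2 fold change −2.55) and Mmp3 (−1.10) and the cytokine Il11 (−1.23) were called lower. Mmp9 fell from 149 ± 1.39 to 25.3 ± 1.25 normalized CPM. Some listed genes known to act on NF-kB signalling, named after their values were seen, passed the adjusted p and not the fold threshold: Birc3 (−0.68), Zc3h12a (−0.62), Tnfaip3 (−0.34) and Nfkbia (−0.26) were lower and Bcl3 (0.20) was higher. The co-regulator Nfkbiz (−0.80) and the prostaglandin synthase Ptges (−0.93) were also lower, while Ptgs2, the enzyme just before it, was higher (0.45). Among neutrophil chemokines, Cxcl1 was higher by 0.22 and Cxcl5 did not pass the test (−0.05), although both were abundant, at 443 ± 17.2 and 436 ± 14.9 normalized CPM in the WT libraries.

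**Figure D5:**
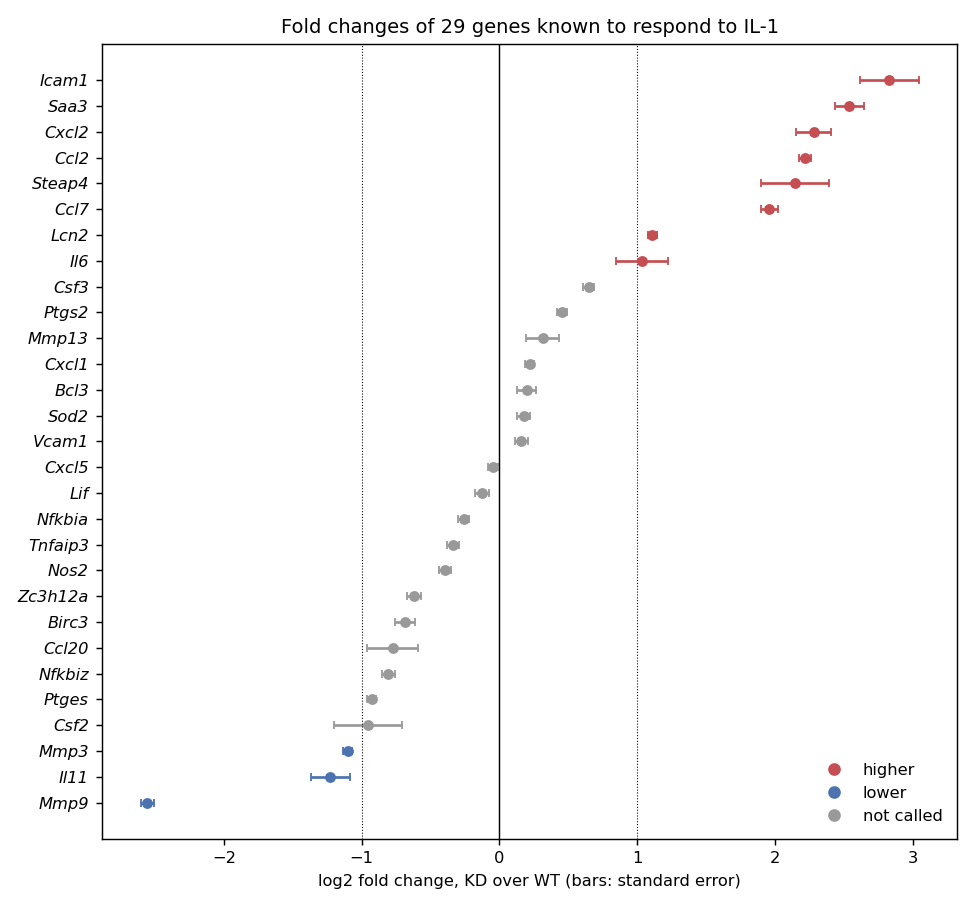
Log2 fold change (KD over WT, horizontal axis) with its standard error of the 29 tested genes known to respond to IL-1, ordered by size. Dotted lines mark a fold change of 2, with 8 genes called higher, from Il6 to Icam1, and 3 called lower, Mmp3, Il11 and Mmp9.

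The genes whose pattern was most like that of a member were found as those with the smallest root mean square difference in centred log2 normalized CPM over the 6 libraries. For Il1rn these were Sp110, Ccrl2 and Abi3bp, at 0.0939, 0.107 and 0.115. For Il18bp they were Hap1, Osgin1 and Ccl2, at 0.103, 0.111 and 0.120. For Il1r1 they were S100a3, Tspan11 and Spred3, at 0.0586, 0.0801 and 0.0841. For Il1rap (Lyar and Ogdh) and Il33 (Kmt5b, Tnrc6a and Afap1) the differences were under 0.04, since these genes vary little. For Il1a they were Pappa2, Fgf1 and Rpl27a-ps4 (0.0564, 0.0832 and 0.0965), and for Il1b Iqcg, LOC118567753 and Ttll11 (0.207, 0.225 and 0.243). For Il1rl1 no gene came closer than Trim72 at 0.478, with Gldc and Rp1l1 next. With 2 groups of 3 libraries, likeness here is mainly a like difference between the groups.

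Lists of markers of other cell types were read beside the shares over all genes tested, 37.8% without overlap in each direction, 10.2% called higher and 9.98% called lower. Of 12 lung epithelium markers, 12 had all KD libraries above all WT libraries, 11 of the 11 tested were called higher, and 7 were at 0 in every WT library. A gene at 0 in every WT library can pass the low-count filter only through the KD libraries. Once tested, it can only be called higher. The 11 of 11 is thus partly fixed by the filter and is not comparable with the 10.2%. The summed level of the 12 markers was 1.73 to 2.12 normalized CPM in WT and 75.3 to 86.5 in KD libraries. The members Il1b, Il1rn, Il33, Il1rap and Il18bp were also higher in every KD library, as were Il18, Il18rap, Il1f6 and Il1f9. So were 37.8% of all genes tested, and with 2 groups a shared direction does not link these genes to the markers. Of 15 listed leukocyte markers, 5 were higher in every KD library and 1 was lower, neither above the share over all genes, while 5 of the 8 tested were called higher and 0 lower, with sums of 88.3 to 99.7 in WT and 196 to 211 normalized CPM in KD libraries, most of it S100a8, Cd14 and Cd68. Those called higher were Cd14, S100a8 and Cd74 (log2 fold changes 1.70, 1.53 and 1.82), Lyz2, with 33, 52 and 5 counts in the WT and 249, 250 and 247 in the KD libraries, and S100a9, with 0, 0 and 2 counts in the WT and 50, 68 and 48 in the KD libraries. S100a9 likewise passed the low-count filter only through the KD libraries, so its call adds to the 5 of 8 by way of the filter. The defining leukocyte genes Ptprc, Csf1r and Cd3e had at most 13, 3 and 0 counts in any library. Of 12 endothelial and stromal markers, 4 were higher and 3 lower in every KD library, under the share over all genes, and of the 8 tested 2 were called higher and 2 lower. Their sum, most of it Pdgfra, was 175 to 194 in WT and 135 to 138 normalized CPM in KD libraries. Against that sum Cdh5, or VE-cadherin of endothelial cells, had 14, 5 and 6 counts in the WT and 2175, 2136 and 2243 in the KD libraries (log2 fold change 8.01), while Pecam1, another endothelial gene, had 6 to 19 counts in any library and did not pass the test. The part of these markers in the differences of the members was not tested.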

How the data were processed

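Per the study's methods, the authors trimmed adapters and mapped reads with HISAT2 to hg19. The submitters' processing notes name HISAT2, featureCounts and hg38. The deposited counts are whole numbers per gene without normalization. The annotation and strand setting are not given in the sources used here. Of the columns of values, 0 were left unused. The filter was filterByExpr with a minimum count of 10 and a minimum total of 15, scaling was by TMM, and testing was done with edgeR 4.0.16 under R 4.3.3 (group only, all 6 libraries, Benjamini-Hochberg over all genes tested). The pipeline was tested on simulated data. Standard errors were derived from the log2 fold change and its F statistic. Members, lists and tests were chosen with earlier results of these data known. Named are all members, described genes of the lists and, for each member, the 3 genes of most like pattern (prior count 2, a minimum of 10 counts per library in the group with the higher level, Gm and Rik names left out), of which 1 is not reported here. Marker lists cover leukocytes, mast cells and ILC2, lung epithelium, endothelium and stroma, and the labelled line. Alternatives were other scalings (size factors as in DESeq2 by the RLE method, upper quartile, library size), filters, thresholds and tests (DESeq2 1.42.0), each replicate left out, and the replicate number as a block.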

Additional observations from a re-analysis of the deposited data

How the results depend on the processing

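Il1rn, Il18bp and Il1r1 kept their direction and call under every alternative, and Il1b stayed uncalled wherever it was tested. Il1a turned sign without WT replicate 1, WT replicate 3 or KD replicate 2 (−0.21 to 0.14 over the replicates left out), and Nlrp3 without WT replicate 1 or KD replicate 2 (−0.30 to 0.16). Il33 and Il1rap were called where no fold threshold was set, Capn1, Ptges and Nfkbiz also in the test against a fold change of 1.5, and Csf2 without KD replicate 3. The call of Il1rl1 was kept without any single library. Without WT libraries 1 and 2, left out after the data were seen, 1 member was called lower, and the loss of Il1rl1 follows from that choice, since WT library 3 lies within the KD range.

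Without the fold threshold, 4952 genes were higher and 4960 lower, with 4 members higher, 1 other family gene lower, 5 processing genes higher and 3 lower, 11 signalling genes higher and 6 lower, and 15 response genes higher and 13 lower. With at least 10 counts in every sample, which removes genes low in 1 group, 903 genes were higher, and 1 member lower, 1 other family gene higher, 1 processing gene higher and 0 lower, and 0 signalling genes lower were left. Without a filter and with DESeq2's Wald test, 5 other family genes were called higher. The test against a fold change of 1.5 called 2 processing and 5 response genes lower. With each replicate left out, all genes called ranged from 1405 to 1488 higher and from 1257 to 1392 lower, members stayed at 2 and 2, and the log2 ratio of Il1rn to its ligands at 3.00 to 3.25.

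The replicate numbers did not pair the libraries (correlations of same-numbered deviations 0.042, −0.015 and −0.021). With the number as a block, 1352 of the genes called higher and 1301 of those called lower were called again, the members' log2 fold changes included 3.35 for Il1rn, 2.19 for Il18bp, −1.49 for Il1r1 and −1.98 for Il1rl1, and no call among the members changed. The block left the log2 ratio at 3.12 (exact sign-flip test, p = 0.25, the smallest it can give). Depth limits Il1a, Il1b and Il1rl1, which had under 80 counts in every library.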
